A study of Mus musculus with 19 samples.

Results

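The 2 lines of mouse induced pluripotent stem cells in which the db mutation in Lepr, the gene of the leptin receptor, had been corrected were compared with the 2 mutant lines named db5. The members are 8 of the 19 libraries of the series, taken by the names of their columns: 4 libraries of corrected lines 1 and 2 (duplicates a and b of each) and 4 libraries of db5 lines a and b (duplicates 1 and 2 of each). The pair was singled out because earlier results of these data showed no shift of whole chromosomes 3, 6 or 15 on either side, so their chromosome values are a description. Fibroblasts of embryos at day 14.5, bred from parents heterozygous for the db allele, were reprogrammed with the STEMCCA lentivirus, which carries Oct4, Sox2, Klf4 and cMyc. Every line of the series could therefore hold these transgenes, and their presence was not tested. The db5 and db7 lines are homozygous for the mutation (db/db), the A5 and B1 control lines are wild type, and in the corrected lines the mutation was repaired with CRISPR-Cas9. The labels give no treatment, no day of harvest, and no name for the mutant line that was edited. Corrected and db5 lines therefore differ by the repair, by the passage through editing and subcloning, and possibly by the line of origin, and these cannot be told apart. Because each side stands for 1 line name, p-values measure the spread between near copies and not between independently derived clones.

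The leptin receptor is a cytokine receptor that signals through the kinase JAK2 and the transcription factor STAT3, which switches on its own inhibitor, SOCS3. The db allele creates a splice site that removes the long signalling form of the receptor from the messenger RNA. In mouse pluripotent cells STAT3 is driven mainly by leukaemia inhibitory factor through LIFR and gp130 (Il6st), and supports self-renewal. Protein synthesis, named in the title of the study, depends on ribosome assembly, on charging of transfer RNAs and on nutrient signals that pass through mTOR.

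The compared libraries held 29842472 to 40330866 estimated counts, from poly(A) RNA made into stranded libraries. Values per gene are CPM (counts scaled to a common library size, with TMM factors), and fold changes are log2 differences of corrected minus db5 with their standard error (SE). A gene is called when its adjusted p from edgeR's quasi-likelihood test is under 0.05 (Benjamini-Hochberg over 19700 genes), and "rose" or "fell" is used only of called genes. Markers of pluripotent cells were abundant: the sum of Pou5f1, Sox2, Nanog, Esrrb, Zfp42 and Dppa5a was 4409 to 4630 CPM in the corrected libraries and 5130 to 5296 CPM in the db5 libraries. Library a2 of db7 stood apart with 24.3% of its counts on the 100 genes of highest mean over all libraries, against 18% to 20.4% elsewhere. Among the fold changes it enters only those that use db7. All lines were fitted together, however, so it also bears on the spread behind the p-values of corrected against db5. With only the corrected and db5 lines fitted, 13222 genes were called, against 12205 with all lines.

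With the duplicates of a line summed, the corrected lines were nearly copies of each other, and so were the db5 lines. The distance between corrected and db5 lines was wide. Over the 9148 genes whose mean reached 10 CPM, the median absolute difference in log2 CPM was 0.033 between both corrected lines and 0.045 between both db5 lines. It was 0.313 to 0.319 between a corrected and a db5 line. The db5 lines lay closer to every other line name: 0.138 to 0.142 from the wild-type A5 lines, 0.179 to 0.188 from B1, and 0.147 to 0.222 from db7. The corrected lines lay 0.272 to 0.310 from db7, 0.294 to 0.302 from A5 and 0.275 to 0.283 from B1.

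**Figure D1:**
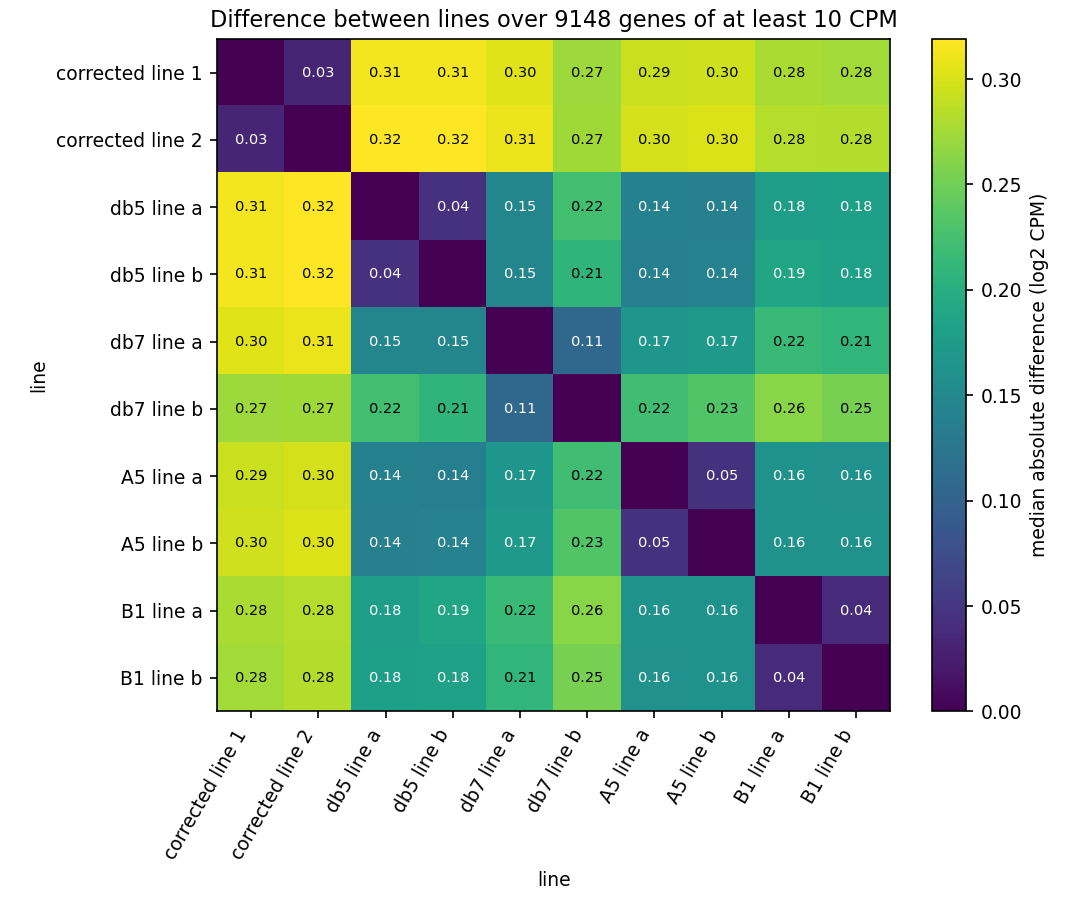
Median absolute difference in log2 CPM between each pair of the 10 lines, with duplicates summed, over genes whose mean reached 10 CPM. Brighter cells are larger differences. The corrected lines differ from each other by 0.033 and from all 8 other lines by 0.272 or more.

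Library 1a of the corrected lines was more like 2b than like its own duplicate. The chi-square per degree of freedom over genes was 3.01 for 1a with 2b and 2.45 for 1b with 2a, against 9.58 for 1a with 1b and 6.04 for 2a with 2b. Among db5 libraries it was 3.49 to 6.48. Each pair thus differed by more than sampling noise, so none was treated as a single library deposited more than once. For the test the duplicates of a line were summed. Over genes of at least 10 CPM the differences between duplicates a and b of both corrected lines correlated at -0.62. Summing cancels such opposite differences, so the 0.033 between the summed corrected lines and the spread used by the test leave part of them out.

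The lines were chosen for lacking the shifts of chromosomes 3, 6 and 15 that other lines carry, so the values by chromosome are given only to describe them. The median log2 difference of corrected from db5 lines by chromosome, set against the median of all genes, ran from -0.124 on chromosome 17 and -0.121 on chromosome 3 to 0.101 on chromosome 2. For scale, chromosome 3 of the db7 lines lay 0.403 and 0.432 above the median of the other lines, chromosome 15 of A5 lay at 0.427 and 0.441, and chromosome 6 of B1 at 0.274 and 0.273. The corrected lines lay at -0.119 and -0.115 on chromosome 3, where db5 lay at 0.047 and 0.064.

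Between corrected and db5 lines 12205 of 19700 genes were called, 62.0% of those tested: 6278 rose (31.9%) and 5927 fell (30.1%). For 11848 genes (60.1%) the 4 corrected and 4 db5 libraries did not overlap. With such near copies on each side small differences pass, so a change of at least 2-fold is used beside the call. It held for 3225 genes (16.4%), of which 2278 rose and 947 fell. Most of them were low: 2005 of the rises and 725 of the falls were genes under 10 CPM in the mean over lines. Lines of the same genotype but of different names give a yardstick. Between the db/db lines db7 and db5 8269 genes were called (42.0%), 1575 of them at least 2-fold (7.99%). Between the wild-type lines B1 and A5 7651 were called (38.8%), 1327 at least 2-fold (6.74%). Between control lines (A5 and B1) and db7 10639 were called (54.0%), 2482 at least 2-fold (12.6%). The corrected and db5 lines thus differed in more genes than any of these pairs, but pairs of one genotype also differed widely.

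The split between rises and falls depends on the scaling. The TMM factors were 1.0859 and 1.0898 in the corrected lines and 0.966 and 0.9636 in db5. With library size alone all fold changes shifted up by a median of 0.17, and 8229 of 12254 called genes rose (67.2%, against 51.4% with TMM). The 100 genes of highest mean over all libraries took 18% to 18.5% of the counts in corrected and 19.8% to 20% in db5 libraries.

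Fold changes also moved with the level and the length of genes. Genes under 1 CPM had a median of 0.38, genes of 1 to 10 CPM 0.22, genes of 10 to 100 CPM -0.06 and the 2257 genes of 100 CPM and more -0.23, of which 1455 fell. With genes of at least 10 CPM put in 5 equal classes by length of exons, the shortest class had a median of -0.33 and the longest 0.14. The same classes had -0.12 and 0.14 in db7 minus db5, and -0.03 and 0.04 in B1 minus A5. By GC content the 5 classes ran from 0.00 in the lowest to -0.20 in the highest. RNA quality is not given in the sources used here, and its part in these trends was not tested. For some lists below the median is also given with the trend removed, which means that the median of genes of like length and GC content was subtracted. That median was taken over all tested genes, including those under 10 CPM, and so differs from the classes above. Counts of called members below are to be read against 31.9% of all tested genes that rose and 30.1% that fell.

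**Figure D2:**
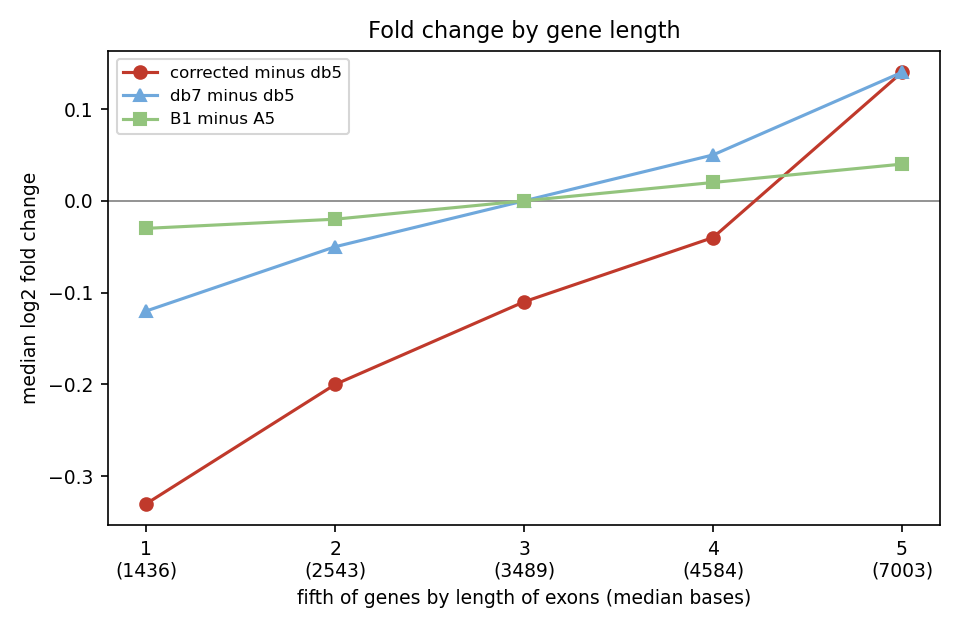
Median log2 fold change of genes of at least 10 CPM, in 5 equal classes by length of exons (median length in bases below each class), for 3 comparisons of lines. In corrected minus db5 the medians climb from -0.33 in the shortest class to 0.14 in the longest.

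Lepr (ENSMUSG00000057722, chromosome 4, 101717404 to 101815352, forward strand, GRCm38) was barely transcribed on either side. Its level was 0.718, 0.729, 0.356 and 0.904 CPM in corrected libraries 1a, 1b, 2a and 2b, and 0.356, 0.383, 0.435 and 0.298 CPM in db5 libraries a1, a2, b1 and b2. Library 2a lay within the range of db5, so the groups overlapped. The log2 difference was 0.84 ± 0.26 (SE; edgeR adjusted p = 0.015), and it was not called by DESeq2 (adjusted p = 0.15), with a replicate block (0.25), with first duplicates only (0.36), without corrected line 1 (0.1), without db5 line a (0.072) or without db5 line b (0.065). Counts per gene do not show the splice site that the mutation creates. Leprot, which lies next to Lepr and codes for a protein of receptor trafficking, was at 46.2 to 49.4 CPM in corrected and 39.5 to 42.9 CPM in db5 libraries (0.21 ± 0.04, edgeR adjusted p = 0.00092).

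Downstream, Stat3 and 3 of its responsive genes were lower in the corrected lines. Stat3 stood at 38.1, 42.4, 38.7 and 39.2 CPM in the corrected libraries and at 69.9, 55.9, 70.7 and 52.5 CPM in db5 (-0.68 ± 0.04, edgeR adjusted p = 5.4e-08). The groups did not overlap, and within db5 the first duplicate of both lines was the higher. Socs3, the feedback inhibitor that STAT3 induces, was at 119 to 133 CPM in corrected and 247 to 257 CPM in db5 libraries (-1.0 ± 0.05, edgeR adjusted p = 5e-08). Its mean was 178 CPM in db7, 264 in A5 and 353 in B1, so the corrected lines were the lowest. Socs2, a second feedback inhibitor, fell from 151 to 63.0 CPM (-1.26 ± 0.04), and Bcl3, a STAT3-responsive regulator of NF-kB, from 49.1 to 16.4 CPM (-1.58 ± 0.09). Other members moved the other way: the kinase Jak2 rose by 1.29, the receptors Osmr and Lifr by 1.24 and 0.98, and the insulin receptor substrate Irs1, at 0.184 CPM in db5 and 0.716 CPM in corrected lines, by 1.95. Of the 31 genes tested from a list of leptin receptor and JAK-STAT3 signalling, 13 rose and 13 fell, with a median of 0.02 against 0.05 over all genes tested.

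The largest rises included genes of 3 membrane transporters, of 2 prostaglandin enzymes and of a fetal growth factor. Slc5a1 (chromosome 5, 33104219 to 33162870), the sodium-glucose cotransporter SGLT1, was at 65.1, 66.5, 65.6 and 64.5 CPM in the corrected libraries and at 5.48, 4.89, 3.98 and 4.47 CPM in db5, a log2 difference of 3.78 ± 0.08 (edgeR adjusted p = 2e-10). Its means were 15.3 CPM in db7, 21 in A5 and 12.1 in B1, so every other line lay between both. Slc1a1, a glutamate and cysteine transporter, rose by 2.98 ± 0.09 from 1.36 to 10.8 CPM. Slco2a1, the prostaglandin transporter, rose by 3.07 ± 0.10.

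Of the prostaglandin enzymes, Ptgs2 (cyclooxygenase 2) was at 30.1 to 33.8 CPM in corrected and 4.33 to 4.80 CPM in db5 libraries (2.77 ± 0.07), and Ptges, which makes prostaglandin E, rose by 3.09 ± 0.11 from 1.75 to 14.9 CPM. Ptgs2 means were 9.75 CPM in db7, 7.54 in A5 and 7.86 in B1, below all 4 corrected libraries. Igf2, the imprinted fetal growth factor (chromosome 7, 142650766 to 142666816), was at 28.8, 23.0, 21.3 and 24.6 CPM in the corrected libraries and at 1.21, 4.36, 2.38 and 2.88 CPM in db5 (3.19 ± 0.10). Its other means were 3.33 in db7, 3.83 in A5 and 6.48 in B1.

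Calcoco2 (chromosome 11, 96099326 to 96111964), an autophagy receptor, was at 84.2 to 91.7 CPM in corrected and 7.15 to 7.88 CPM in db5 libraries (3.52 ± 0.08). Its means of 12.1 CPM in db7, 34.1 in A5 and 73.8 in B1 put both mutant lines lowest. The other 15 largest rises by the rule were the orphan receptor Gprc5c (3.74), the sperm protein gene Zan (3.52), the transcriptional coactivator Cited4 (3.47), the Rab5 exchange factor Rin3 (3.26), the aldehyde oxidase Aox3 (3.14), Fam169b (3.06), Phyhip (2.87) and the endothelial guidance receptor Robo4 (2.82). All 15 had non-overlapping libraries, which the rule required.

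The largest falls included an axon growth gene, a neuronal filament gene and a Nodal inhibitor. Crmp1 (chromosome 5, 37241940 to 37292133), a collapsin response mediator of axon growth, was at 2.71, 3.83, 3.64 and 3.83 CPM in the corrected libraries and at 109, 107, 101 and 101 CPM in db5 (-4.93 ± 0.07, edgeR adjusted p = 2e-11). Its means of 2.79 CPM in db7, 22.2 in A5 and 22.1 in B1 leave db5 the highest. Lefty1, the secreted Nodal inhibitor, was at 14.0 to 18 CPM in corrected and 127 to 140 CPM in db5 libraries (-3.02 ± 0.08), with means of 40.9 in db7, 181 in A5 and 129 in B1.

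Ina (chromosome 19, 47014698 to 47025327), the neuronal filament internexin, was higher in both db/db names than in the wild-type and corrected lines: 3.66 to 4.13 CPM in corrected and 22.3 to 25.2 CPM in db5 libraries (-2.63 ± 0.07), with means of 29.6 in db7, 7.91 in A5 and 6.96 in B1. The gap junction gene Gjb1 did likewise, at 1.23, 1.52, 1.56 and 2.27 CPM in corrected and 12.1 to 13.7 CPM in db5 libraries (-3.00 ± 0.12), and means of 19.6 in db7, 6.48 in A5 and 4.62 in B1. The other 15 largest falls were Ndufa4l2 (-3.07), a hypoxia-induced mitochondrial protein, the mannose receptor Mrc1 (-3.07), Bnipl (-3.04), Armcx2 (-2.94), the transcription factor Bcl11a (-2.89), nephrin Nphs1 (-2.59), the NMDA receptor subunit Grin1 (-2.57), the clock repressor Ciart (-2.49), Tbc1d9 (-2.48), the HIF target Fam162a (-2.48) and Smagp (-2.45).

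**Figure D3:**
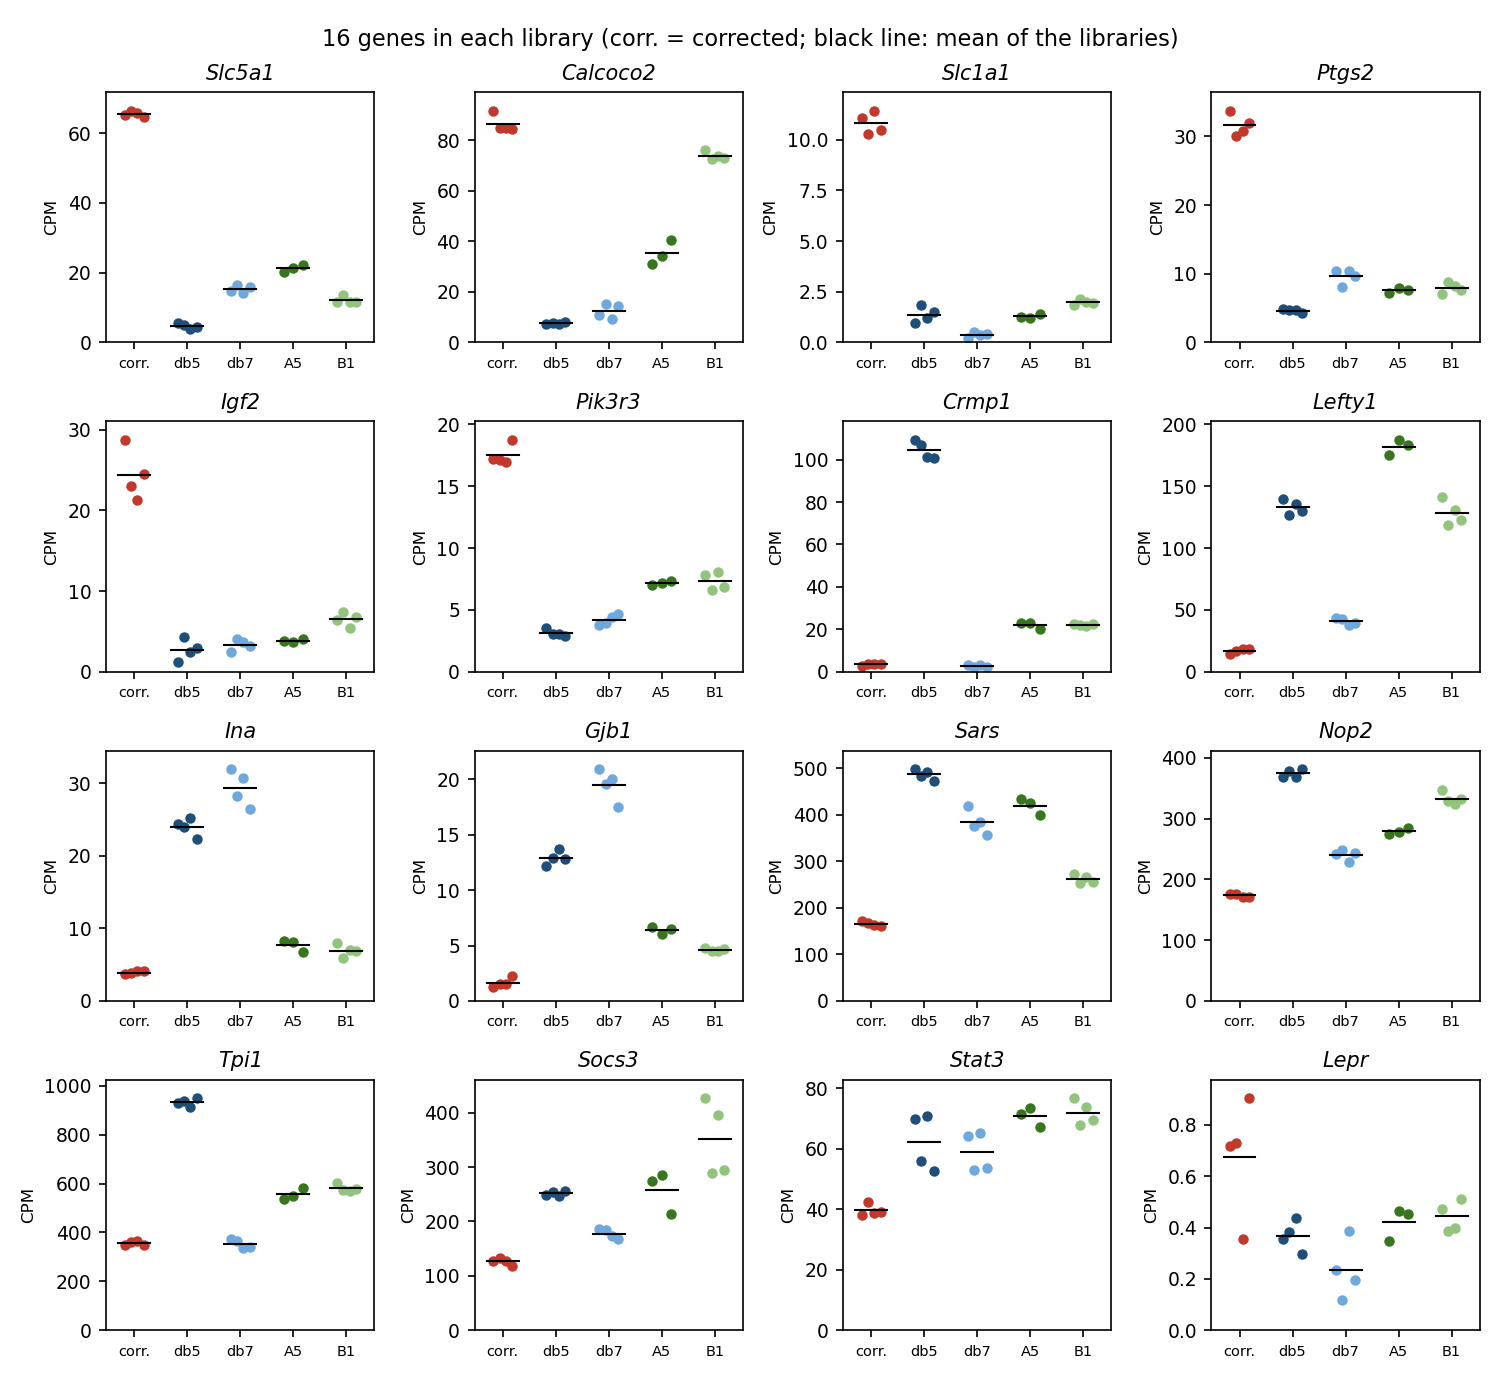
CPM of 16 genes in each of the 19 libraries, with the mean of each group's libraries as a black line; every axis starts at 0. Ina and Gjb1 are high in both db/db names, Crmp1 is high in db5 (101 to 109 CPM) beside 2.71 to 3.83 CPM in the corrected libraries, and Lepr stays under 1 CPM throughout.

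Most genes of the protein synthesis machinery fell in the corrected lines. Of 83 cytosolic ribosomal protein genes 77 fell and 1 rose (median -0.39), of 78 mitochondrial ribosomal protein genes 69 fell and 2 rose (-0.41), and of 80 ribosome biogenesis factors 73 fell and 2 rose (-0.44). Of 22 aminoacyl-tRNA synthetases, which charge transfer RNAs, 21 fell and none rose (-0.59). Of 44 initiation factors 39 fell and 3 rose (-0.26), of 19 elongation and termination factors 15 fell and 2 rose (-0.34), and of 42 subunits and factors of RNA polymerases I and III, which make ribosomal and transfer RNA, 28 fell and 7 rose (-0.33). Over all genes tested 30.1% fell. Of these genes only 1 mitochondrial ribosomal protein gene and 1 elongation factor gene were under 10 CPM in the mean. Of all genes of 100 CPM and more 1455 of 2257 fell, and of those of 10 to 100 CPM 2949 of 6891.

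With the trend over length and GC content removed the medians were -0.23 for cytosolic and -0.35 for mitochondrial ribosomal proteins, -0.45 for biogenesis factors, -0.60 for the synthetases, -0.31 for initiation factors, -0.29 for elongation factors and -0.35 for the polymerases. With library size alone they were -0.21, -0.24, -0.27, -0.42, -0.09, -0.16 and -0.16, so the sign of each stayed the same. Fewer members fell under that scaling: 59 of 83 cytosolic and 59 of 78 mitochondrial ribosomal proteins, 61 of 80 biogenesis factors, 18 of 22 synthetases and 19 of 44 initiation factors. The other comparisons of lines gave smaller medians for the same lists. Cytosolic ribosomal proteins had -0.16 in db7 minus db5, -0.01 in B1 minus A5 and 0.13 in control minus db7. Biogenesis factors had -0.03, -0.04 and 0.00, and the synthetases -0.12, -0.07 and 0.09. Counted as a share of each library, cytosolic ribosomal protein genes took 6.08% to 6.37% of the counts in the corrected and 6.82% to 7.09% in the db5 libraries. The db7 libraries, at 6.19% to 6.76%, overlapped the corrected ones, while the control libraries held 7.0% to 7.40%.

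Nop2 (chromosome 6, 125131909 to 125144753), a ribosomal RNA methyltransferase, was at 176, 177, 172 and 171 CPM in the corrected and 368, 379, 369 and 382 CPM in the db5 libraries (-1.12 ± 0.04, edgeR adjusted p = 3.5e-09). Emg1, a methyltransferase of small-subunit assembly, fell by 0.99 and Dkc1, the pseudouridine synthase dyskerin, by 0.93. The serine synthetase Sars (chromosome 3, 108424865 to 108445209) was at 160 to 172 CPM in corrected and 473 to 498 CPM in db5 libraries (-1.56 ± 0.05, edgeR adjusted p = 1.7e-09), with means of 387 in db7, 424 in A5 and 262 in B1. The synthetases of tyrosine and methionine, Yars and Mars, fell by 0.77 and 0.69.

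Eif4e, the cap-binding factor, was at 158 to 179 CPM in corrected and 335 to 356 CPM in db5 libraries (-1.05 ± 0.05), and Eif1, which guards start codon choice, fell by 0.78. Eif4a2, a paralogue of the helicase subunit Eif4a1, rose by 0.71 ± 0.05 from 499 to 815 CPM. Of the ribosomal proteins Rpl34 fell from 565 to 297 CPM (-0.93 ± 0.06), and Rps4x, on the X chromosome, was the only member of the list that rose (from 1467 to 2258 CPM, 0.62 ± 0.04). Here db5 was the low side: the means were 2657 CPM in db7, 2561 in A5 and 2770 in B1. Rpl36a (-0.74) is uncertain, as are other ribosomal proteins with near-identical processed copies, since estimated counts divide reads between them. Mrpl33, a mitochondrial ribosomal protein, showed the same pattern as Rps4x: 32.7 to 34.6 CPM in corrected and 13.8 to 14.6 CPM in db5 libraries (1.25 ± 0.05), and 29.9, 31.7 and 32.3 CPM in db7, A5 and B1. Mrpl51 fell by 1.0 ± 0.05 and the polymerase III subunit Polr3c by 1.02 ± 0.04.

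Promoters of the genes that fell held a binding motif of ETS family factors more often than those that rose. RefSeq promoters (GRCm38.p6) were found for 13124 of the 19685 gene names tested, and the 250 bases before the start were searched on both strands. Among genes of at least 10 CPM the ETS motif CCGGAAG was in 22% of 3435 promoters of genes that fell, 13.6% of 2061 of genes that rose and 18.7% of all 7107. It was in 29.4% of 68 biogenesis factor promoters, 29.0% of 62 of cytosolic ribosomal proteins, 26.1% of 69 of mitochondrial ribosomal proteins and 5 of 14 of the synthetases, but in none of 30 of the fibroblast and matrix list described below. The motif also goes with level, being in 13.5% of all 13124 promoters, and genes of at least 10 CPM with it had a median of -0.19 against -0.10 without it. In the 100 bases before the start it was in 15.3% of those that fell, 9.12% of those that rose and 13.1% of all, and in 2 of 14 of the synthetases. The E-box CACGTG, which MYC and MAX bind, was in 12.0% of those that fell, 9.12% of those that rose and 10.8% of all. It was less frequent in the ribosome lists: 7.35% of biogenesis factors, 8.06% of cytosolic and 7.25% of mitochondrial ribosomal proteins. Of the synthetases 3 of 14 held it. The motif GCCNNNGGG, searched as a control for base composition, went the other way, with 35.7%, 43.3% and 38.8%. CRE (TGACGTCA) was in 3.44% and 3.20%, AP-1 (TGAGTCA) in 3.38% and 4.27%, the STAT motif TTCCNGGAA in 1.46% and 1.02% and the heat shock motif TTCNNGAA in 6.96% and 6.50% of promoters of genes that fell and rose. Matches of the heat shock and STAT motifs can overlap a match of the ETS motif, with which they share letters. The stretches below, 60 bases each from the strand of the gene, show the motif in promoters of 6 protein synthesis genes that fell, taken from those of lowest p in their list that hold it within 100 bases of the start and have a single promoter entry. Capitals mark the ETS motif on either strand and, in Nop2, also the E-box. They lie at chr6:125131805-125131864 (Nop2, + strand), chr6:124712203-124712262 (Emg1, - strand), chr12:28635954-28636013 (Rps7, - strand), chr6:125192070-125192129 (Mrpl51, + strand), chr17:46110938-46110997 (Mrps18a, + strand) and chr3:108445260-108445319 (Sars, - strand).
Nop2: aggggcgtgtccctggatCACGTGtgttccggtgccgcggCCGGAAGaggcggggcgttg
Emg1: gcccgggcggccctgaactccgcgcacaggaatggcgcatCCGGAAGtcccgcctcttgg
Rps7: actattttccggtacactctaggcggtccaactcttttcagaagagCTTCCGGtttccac
Mrpl51: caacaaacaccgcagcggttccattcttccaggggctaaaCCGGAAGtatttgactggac
Mrps18a: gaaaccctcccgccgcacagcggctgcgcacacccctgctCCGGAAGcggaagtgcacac
Sars: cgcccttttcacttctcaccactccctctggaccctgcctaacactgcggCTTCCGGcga

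Most called genes of the MYC network were lower as well. Myc, one of the reprogramming factors and an activator of ribosome genes, was at 401, 397, 393 and 374 CPM in the corrected and 837, 827, 788 and 758 CPM in the db5 libraries (-1.05 ± 0.06, edgeR adjusted p = 5.6e-08). Its means were 646 CPM in db7, 633 in A5 and 565 in B1, so corrected lines lay lowest and db5 highest. Counts of Myc, Klf4, Sox2 and Pou5f1 could include transgene reads. Its partner Max fell by 0.85 ± 0.05 and the antagonist Mnt by 0.77 ± 0.05. Of 20 genes of the MYC network 12 fell and 4 rose (median -0.32), and with library size alone 10 fell and 7 rose (-0.14).

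Genes of amino acid supply, which the transcription factor ATF4 induces, fell in 20 of 27 cases and rose in 4 (median -0.64, and -0.68 with the length and GC trend removed). The serine synthesis enzymes Phgdh and Psat1 fell from 342 to 169 CPM (-1.01 ± 0.05) and from 437 to 265 CPM (-0.72 ± 0.04), and the mitochondrial folate enzyme Mthfd2 from 135 to 69.3 CPM (-0.96 ± 0.05). Chac1, which degrades glutathione, fell by 1.47. This list also separated lines of a shared genotype, with medians of -0.21 in db7 minus db5 and -0.39 in B1 minus A5.

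Components of the mTOR pathway split: 21 of 47 fell and 14 rose (median -0.09, and -0.28 with the length and GC trend removed). With library size alone 23 rose and 12 fell, with a median of 0.09, so the direction of this list depends on the scaling. The Ragulator subunit Lamtor3 fell from 59.6 to 25.5 CPM (-1.23 ± 0.04) and the Rag GTPase Rragc from 82.3 to 44.2 CPM (-0.90 ± 0.04), while Lamtor2 was not called (0.04) and the lysosomal amino acid sensor Slc38a9 rose by 0.66. Inhibitors of mTORC1 moved both ways: Sesn1 (1.06 ± 0.05) and Deptor (0.83) rose, and Akt1s1 (-0.91), Tbc1d7 (-0.90), Sesn2 (-0.42) and Nprl2 (-0.41) fell. In insulin, IGF and PI3K-AKT signalling 15 of 29 rose and 7 fell (median 0.13, and 0.05 with the trend removed). The ligand Igf2 rose by 3.19, and the receptors Igf1r and Insr by 1.21 and 1.14. Pik3r3, a regulatory subunit of PI3-kinase, was at 17.0 to 18.8 CPM in corrected and 2.91 to 3.51 CPM in db5 libraries (2.47 ± 0.09), and the lipid phosphatase Inppl1 rose by 0.99 ± 0.04.

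Glycolysis and the hypoxia response were lower in corrected than in db5 lines, and here db5 was the high side. Of 25 glycolytic genes 20 fell and 3 rose (median -0.60), but db7 minus db5 had a median of -0.47 and corrected minus db7 0.09. Tpi1, triosephosphate isomerase, was at 347 to 363 CPM in corrected and 913 to 949 CPM in db5 libraries (-1.40 ± 0.05), with a mean of 355 CPM in db7, 552 in A5 and 580 in B1. Pgk1 fell by 0.90 and Ldhb by 1.27. Of 24 hypoxia response genes 18 fell and 4 rose (median -0.23, -0.34 with the trend removed, and -0.62 in db7 minus db5), and with library size alone 10 fell and 5 rose (-0.06). Egln3, the oxygen-sensing hydroxylase that HIF induces, was at 18.5 to 21.1 CPM in corrected and 48.5 to 57.2 CPM in db5 libraries (-1.43 ± 0.06). Its means of 28.1, 20.4 and 19.5 CPM in db7, A5 and B1 leave db5 alone above 48.5.

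Other lists of abundant genes were lower too, and stand beside 1455 falls among the 2257 genes of 100 CPM and more, whose median was -0.23. Genes of 10 to 100 CPM had 2949 falls among 6891 and a median of -0.06. The median level was 86.6 CPM in the oxidative phosphorylation list, 50.9 in cholesterol synthesis and 84.2 in DNA replication, all below 100 CPM. Of 74 nuclear-encoded subunits of oxidative phosphorylation 67 fell and 2 rose (median -0.34, and -0.22 with the trend removed), among them the succinate dehydrogenase subunit Sdhb (-0.82). Of 46 proteasome genes 41 fell and 1 rose (-0.38), with Psmb4 at 147 to 164 CPM in corrected and 334 to 342 CPM in db5 libraries. Of 25 cholesterol synthesis genes 19 fell and 2 rose (-0.37), including lanosterol synthase Lss (-0.72). Of 50 DNA replication genes 36 fell and 8 rose (-0.26, and -0.08 with library size alone), including the helicase subunit Mcm3 (-0.50). Their median was close to the -0.23 of the higher class and further down than the -0.06 of the lower. Of 47 chaperones 31 fell and 8 rose (-0.19, and -0.01 with library size alone), no further down than genes of 100 CPM and more. Hspa5, the chaperone of the endoplasmic reticulum, was lower by 0.82.

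The core pluripotency factors were kept, with shifts of less than 2-fold. Pou5f1 was at 1244 to 1372 CPM in corrected and 1575 to 1637 CPM in db5 libraries (-0.31 ± 0.04), and Sox2 at 388 to 417 and 573 to 650 CPM (-0.59 ± 0.05). Nanog rose, from 368 to 422 CPM in db5 to 545 to 565 CPM in corrected libraries (0.48 ± 0.04). Klf4 was not called (-0.12 ± 0.05, edgeR adjusted p = 0.059), with overlapping libraries, and its sign turned with library size alone (0.05). Of 30 core and naive pluripotency genes 15 fell and 9 rose (median -0.13, and 0.04 with library size alone). Lower members included Nr5a2, an orphan receptor that sustains Pou5f1 (-1.0), and the RNA-binding protein Lin28a (-0.80). Genes of the primed or formative state fell in 11 of 20 cases and rose in 5 (-0.24), and with library size alone 10 fell and 8 rose (-0.06). Otx2, which drives exit from the naive state, was at 8.83 to 10.5 CPM in corrected and 21.5, 32.5, 21.5 and 33.3 CPM in db5 libraries (-1.49 ± 0.09), with the second duplicates of both db5 lines higher. Lef1 fell by 1.90 and the activin binder Fst rose by 0.99.

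**Figure D4:**
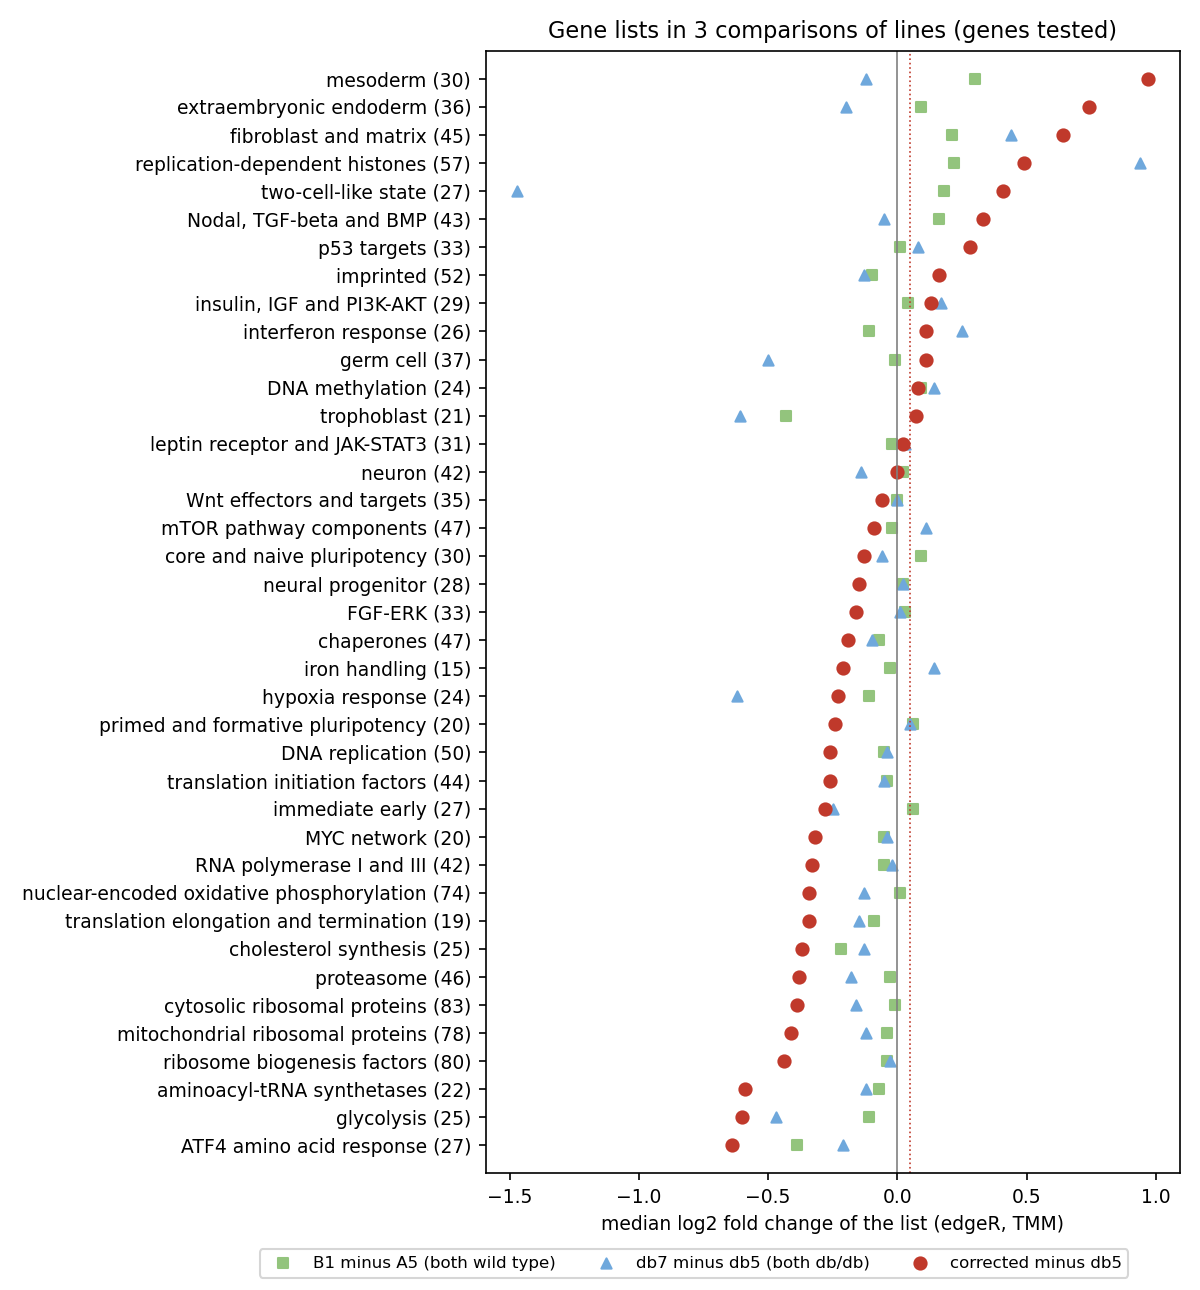
Median log2 fold change of each list of at least 15 tested genes (number in brackets) in corrected minus db5 (circles), db7 minus db5 (triangles) and B1 minus A5 (squares); the dotted line is the median of all tested genes in corrected minus db5. The lists of protein synthesis lie at -0.26 to -0.59 in corrected minus db5, and mesoderm and extraembryonic endoderm genes at 0.97 and 0.74.

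In the lists of extraembryonic endoderm, fibroblast and matrix, and mesoderm genes, most called members rose. Of 36 extraembryonic endoderm genes 22 rose and 7 fell (median 0.74), and 27 of the 36 were under 10 CPM, where the median of all genes was 0.31. The basement membrane collagens Col4a1 and Col4a2 were at 162 to 184 and 90.0 to 102 CPM in corrected libraries and at 65.9 to 79.7 and 33.0 to 42.2 CPM in db5 (1.24 ± 0.04 and 1.32 ± 0.05). The laminin Lamb1 rose by 0.83 and the endoderm regulator Hnf4a by 1.09, from 6.83 to 14.5 CPM. The endoderm factor Sox17 rose by 1.69 and Sox7 fell by 1.37. Of the 9 defining markers tested 6 rose and 2 fell, with a summed level of 227 to 260 CPM in corrected and 150 to 163 CPM in db5 libraries, while Afp was too low to test. Col4a1 is among these markers, makes up most of the sum in the corrected libraries, and differs between the sides by about as much as the sum. In bulk RNA more cells of a type and more RNA per cell cannot be told apart.

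Of 45 fibroblast and matrix genes 32 rose and 4 fell (median 0.64), such as the matricellular growth regulator Ccn1 (47.1 to 52.0 CPM in db5, 181 to 193 CPM in corrected libraries, 1.89 ± 0.05), the actin binder Cald1 (1.92 ± 0.08) and the collagen Col5a1 (1.21 ± 0.06). Of these 45 genes 20 were under 10 CPM in the mean, where the median of all genes was 0.31. The list was low in db5, since its median was also positive in db7 minus db5 (0.44). It was 0.28 in corrected minus db7 and 0.48 in control minus db7. Of the 9 defining fibroblast markers tested 8 rose and none fell. They summed to 141 to 201 CPM in corrected and 76.7 to 147 CPM in db5 libraries, which overlap. Their sums were 118 to 223 CPM in db7, 215 to 312 CPM in A5 and 197 to 388 CPM in B1. Lum was too low to test. Whether leftover fibroblasts or feeder cells take part in the rise was not tested.

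All 30 mesoderm genes tested were under 10 CPM in the mean over lines, and 19 rose and 3 fell (median 0.97, and 1.1 with the trend removed). The 2 defining markers tested summed to 8.23 to 9.43 CPM in corrected and 6.83 to 9.01 CPM in db5 libraries, which overlap, and 1 of them rose. Tbx20, a heart field factor, was at 10.5 to 11.6 CPM in corrected and 3.24 to 4.12 CPM in db5 libraries (1.60 ± 0.14), and Evx1, a gene of the primitive streak, fell from 2.86 to 0.679 CPM (-2.06 ± 0.16). T and Mesp1, which define early mesoderm, were too low to test. Trophoblast genes split, with 8 up and 8 down of 21 (median 0.07, and -0.05 with the trend removed), and the 5 defining markers summed to 16.6 to 18.6 CPM in corrected and 30.2 to 36.7 CPM in db5 libraries. Of these markers 3 rose and 2 fell, and Tfap2c made up most of the sum. Tead4, which specifies trophectoderm, rose from 35.5 to 80.5 CPM (1.18 ± 0.05) and Gata3 from 0.943 to 5.34 CPM (2.50 ± 0.14), while Tfap2c fell from 31.2 to 10.9 CPM (-1.52 ± 0.05). In the 2-cell-like state, a rare state of embryonic stem cells that resembles the early embryo, 13 of 27 genes rose and none fell (median 0.41, and 0.29 with the trend removed). Of these 26 were under 10 CPM in the mean, where the median of all genes was 0.31 and 3582 of 10552 rose, so the list lay near that background. Zscan4f was at 3.56 to 5.27 CPM in corrected and 1.95 to 3.15 CPM in db5 libraries (0.72 ± 0.11), and counts of this family are uncertain because its copies are near-identical. The controls stood far higher, at 7.53 CPM in A5 and 10.7 in B1, and db7 lower, at 0.962.

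Neuronal genes, which the title of the study also names, moved in both directions. Of 42 neuron genes 13 fell and 12 rose (median 0.00), and of 28 neural progenitor genes 11 fell and 9 rose (-0.15, and 0.02 with library size alone). Beside Crmp1, Ina and Grin1, the tubulin Tubb3 fell, at 11.2 to 14.9 CPM in corrected and 44.4 to 49.2 CPM in db5 libraries (-1.90 ± 0.07). Its means were 31.1 in db7, 50 in A5 and 81.7 in B1. The neurofilament Nefh rose from 13.3 to 35.4 CPM (1.42 ± 0.05). Of the progenitor factors Pax6 fell from 5.46 to 1.49 CPM (-1.88 ± 0.14) and Olig2 rose from 13.9 to 26.9 CPM (0.95 ± 0.07). The summed level of the 4 neural markers tested was 28.3 to 32.6 CPM in corrected and 75.7 to 85.4 CPM in db5 libraries, and Dcx was too low to test.

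Among signalling genes, 25 of 43 of the Nodal, TGF-beta and BMP pathways rose and 10 fell (median 0.33, and 0.22 with the trend removed). The Nodal target Lefty2 was at 229 to 242 CPM in corrected and 519 to 579 CPM in db5 libraries (-1.23 ± 0.04), with 218 CPM in db7, 406 in A5 and 831 in B1. The ligand Bmp7 rose by 2.42 ± 0.10 from 2.05 to 10.9 CPM, and the BMP target Id1 fell by 1.20. In FGF-ERK signalling 18 of 33 fell and 5 rose (-0.16, and 0.01 with library size alone), with the feedback inhibitor Spry2 at 128 to 131 CPM in corrected and 177 to 180 CPM in db5 libraries. Wnt effectors and targets were split at 11 up and 11 down of 35 (-0.06, and 0.11 with library size alone), and the Wnt-induced inhibitor Notum fell by 0.95. Immediate early genes fell in 17 of 27 cases and rose in 6 (-0.28), and with library size alone 11 fell and 9 rose (-0.10). Fosb was at 57.7 to 68.5 CPM in corrected and 140 to 181 CPM in db5 libraries (-1.35 ± 0.08), while Btg2 rose (0.59).

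Imprinted genes rose in 24 and fell in 20 of 52 cases. Plagl1, a growth-restricting zinc finger gene, was at 25.2 to 28.1 CPM in corrected and 7.48 to 9.92 CPM in db5 libraries (1.60 ± 0.06). The maternally expressed RNAs Meg3 and Rian had means of 39.3 and 20.1 CPM in corrected and 15 and 7.92 CPM in db5 lines, with no overlap of libraries (1.39 and 1.34). Both were lowest in db7 and highest in the wild-type lines, with means of 4.44 and 1.28 CPM in db7, 69.0 and 33.2 in A5, and 47.9 and 29.6 in B1. The methylcytosine oxidase Tet3 rose from 18.3 to 46.3 CPM (1.34 ± 0.06). Of 33 p53 targets 19 rose and 8 fell (0.28), with Perp at 78.8 to 88.0 CPM in corrected and 33.0 to 40.9 CPM in db5 libraries (1.18 ± 0.05), while Trp53 itself fell by 0.55. Xist, the RNA of the inactive X chromosome, was at 6.51 to 8.71 CPM in corrected and 1.24 to 1.68 CPM in db5 libraries. Single genes of small lists also moved, such as the iron reductase Steap3 (1.90), the peptide transporter Tap1 (2.08) and the germ cell gene Tdrd12 (-1.19).

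Comparison with the other lines shows which side departs. Among the 3225 genes that changed at least 2-fold, both corrected lines lay outside the range of the 8 other lines, with db5 inside the range of its own 8, in 1674 (51.9%). In 12.2% it was db5 that lay outside, in 541 (16.8%) both did, and in 618 (19.2%) neither. Over all 19700 genes the shares were 34.6%, 9.72%, 7.06% and 48.6%. Choosing genes for a difference between both names favours lines at an end of the range, so these shares are a description. Of genes that rose at least 2-fold, corrected lines alone were outside for 56.5% and db5 alone for 10.6%. Of those that fell, the shares were 40.9% and 15.9%.

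Whether the differences run along the genotype was described with a contrast that shares no library, control (A5 and B1) minus db7, off chromosomes 3, 6 and 15. Of 10523 genes called in corrected against db5, 51.7% had the same sign in it, against 51.2% of all 17069 genes. Of the 2703 changed at least 2-fold 59.1% did, 63.0% of those that rose and 49.7% of those that fell. Of these 2703 genes 387 had a mean of at least 10 CPM. The wild-type pair B1 minus A5, which holds no library of the corrected or db5 lines, is given as a description only, since its direction is arbitrary and A5 minus B1 turns each share into its complement. In the direction written it shared the sign of 58.5% of the called genes and 61.2% of those changed at least 2-fold, against 56.2% of all. With A5 alone in place of both controls the share of called genes was 48.5%, and with B1 alone 54.8%. Across 7957 genes of at least 10 CPM, which are not independent replicates, Pearson's r of corrected minus db5 was 0.04 with control minus db7 and 0.17 with B1 minus A5, whose sign is likewise a matter of direction.

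Of the genes off these chromosomes 6187 were called in both contrasts, which is 58.8% of those called in corrected against db5 and 68.4% of those called in control against db7. Of these 1734 rose in both, 1564 fell in both and 2889 moved in opposite directions. At 2-fold or more in both the counts were 327, 104 and 203. By the rule, the genes with the largest smaller change that rose in both included Calcoco2, Zan, Slc1a1, Pramel6, Ppp2r2c, Apom and Vegfc. Pramel6, a gene of the early embryo, was at 39.6 to 43.4 CPM in corrected and 6.03 to 8.94 CPM in db5 libraries, with 0.791 CPM in db7, 8.17 in A5 and 15.3 in B1. Ppp2r2c, a regulatory subunit of protein phosphatase 2A, was at 30.5 to 32.7 CPM in corrected and 5.43 to 6.55 CPM in db5 libraries, with 2.45 in db7, 13.4 in A5 and 33.3 in B1. The lymphatic growth factor Vegfc rose from 1.24 to 5.43 CPM and the apolipoprotein Apom from 1.10 to 6.25 CPM.

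The genes that the same rule named among those that fell in both were Gjb1, Ina, Tbc1d9, Sema3e, Cds1, Fabp3, Fgfr2 and Nbdy. Fabp3, a fatty acid binding protein, was at 44.9 to 49.8 CPM in corrected and 113 to 145 CPM in db5 libraries, and at 193 CPM in db7, 48.8 in A5 and 54.6 in B1, so the corrected lines lay near the level of A5. Its difference was -1.45 ± 0.05 in corrected minus db5 and -1.90 in control minus db7. The guidance cue Sema3e fell from 8.51 to 2.80 CPM, the phospholipid enzyme Cds1 from 7.14 to 2.04, the growth factor receptor Fgfr2 from 5.96 to 2.14 and Nbdy, a small protein of RNA decapping bodies, from 18.9 to 7.0. For Tbc1d9, Sema3e, Cds1 and Fgfr2 the wild-type lines differed as well, B1 lying below A5 by 2.20, 2.35, 1.13 and 1.69. Those that the rule named among genes of opposite sign were Crmp1, Lefty1, Cass4 and Arhgef28. Cass4, an adhesion scaffold, was at 6.03 CPM in corrected and 1.57 in db5 lines but 6.56 in db7, 2.52 in A5 and 1.04 in B1, and Arhgef28 at 13.2, 3.71, 29.8, 5.28 and 2.37 CPM.

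**Figure D5:**
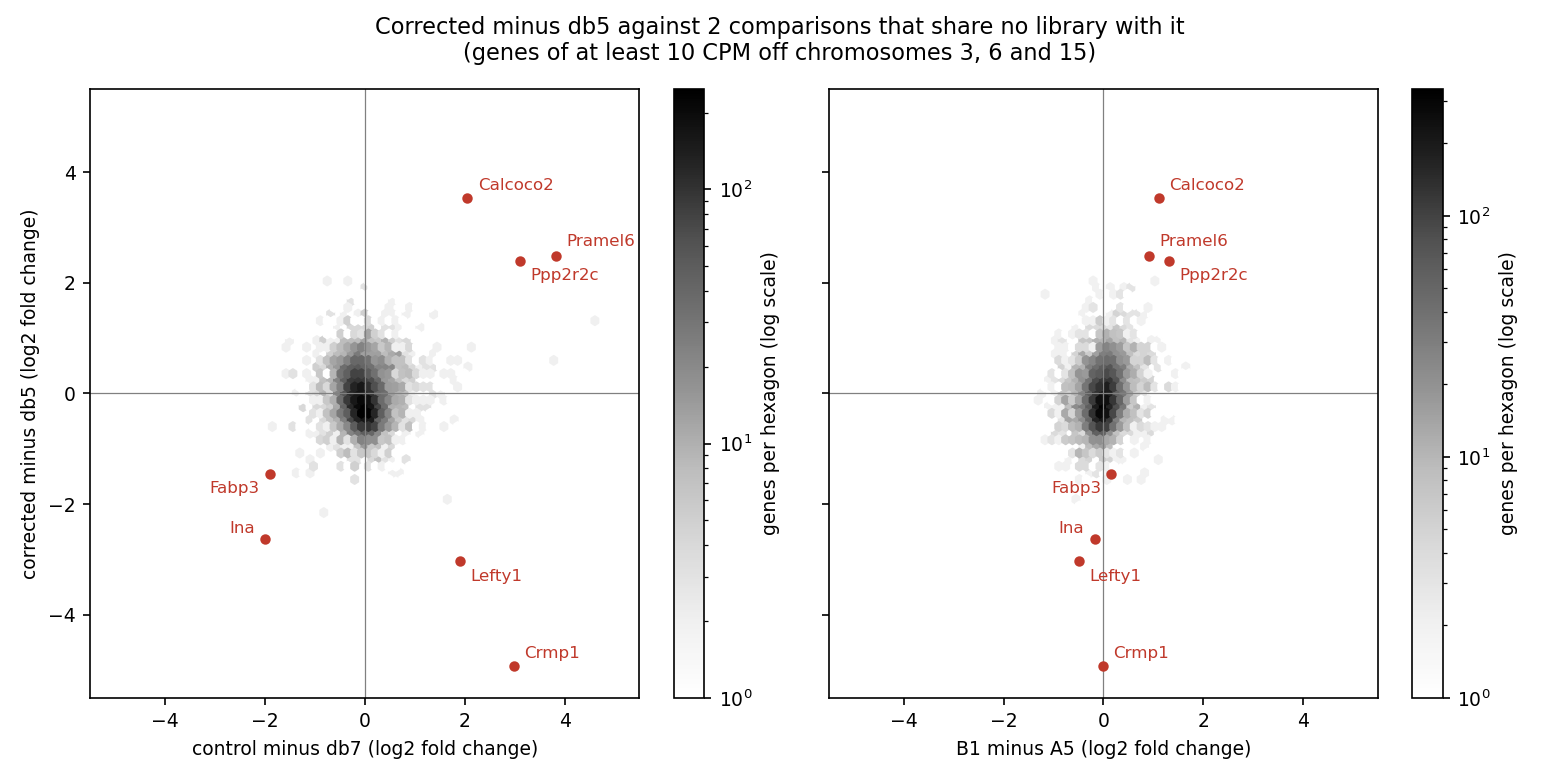
Log2 fold change of corrected minus db5 (vertical) against control minus db7 (left) and B1 minus A5 (right) for genes of at least 10 CPM off chromosomes 3, 6 and 15, as density on a log scale, with 7 genes marked. Pearson's r is 0.04 on the left and 0.17 on the right, where the direction of the contrast and so the sign of r are arbitrary; Crmp1 and Lefty1 lie at the lower right of the left panel, with opposite signs in both comparisons.

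Around Lepr itself the density of changes was close to that of the genome. Of the 200 tested genes nearest to Lepr, 100 on each side (chromosome 4, 70248636 to 116097043), 130 were called (65.0%, against 62.0% of all) and 36 changed at least 2-fold (18%, against 16.4%). In db7 against db5, which share the mutant allele, the same window held 88 calls (44.0%, against 42.0%) and 25 changes of at least 2-fold (12.5%, against 7.99%). In control against db7 it held 117 calls (58.5%, against 54.0%) and 46 changes of at least 2-fold (23% of its genes, against 12.6%). In B1 against A5 it held 83 calls (41.5%, against 38.8%) and 18 changes of at least 2-fold (9% of its genes, against 6.74%). Dnajc6 (chromosome 4, 101496648 to 101642799), a clathrin-uncoating cofactor upstream of Lepr, was at 25.7 to 28.3 CPM in corrected and 9.96 to 12.1 CPM in db5 libraries (1.29 ± 0.05, edgeR adjusted p = 8.3e-09). Its means were 30.9 CPM in db7, 8.01 in A5 and 34.2 in B1, so it varied within each genotype.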

How the data were processed

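Poly(A) RNA of 19 libraries was made into stranded TruSeq libraries, per the labels' protocols. Estimated counts per Ensembl gene, deposited by the authors in 1 table, were the starting point. The submitters' processing notes name kallisto and GRCm38; its version and index: not given in the sources used here. Of 52143 identifiers 51336 matched GENCODE M21 (99.38% of counts), and 79.7% of values were whole within 1e-06. Totals were 27333665 to 41203436 per library. The labels do not say that duplicates were separate cultures.

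Counts were rounded, summed per line and fitted with edgeR 4.0.16 in R 4.3.3 (filterByExpr, TMM, quasi-likelihood test, 10 lines in 5 groups of 2), with Benjamini-Hochberg adjustment over 19700 genes and a threshold of 0.05. An SE is the absolute log2 fold change divided by the square root of F. CPM use TMM factors, with a prior count of 2 on the log2 scale for line distances. The script was tested on simulated data. Members, lists and rules were chosen with earlier results of these data known. Genes were named as the 15 largest rises and falls (called, at least 5 CPM in the higher group, libraries not overlapping, no predicted genes, pseudogenes or members of a sex-linked list), 9 fixed genes, up to 4 members per list with the lowest p, 8, 8 and 4 genes called in both independent contrasts, and genes nearest Lepr; further list members, given by their fold change only, were chosen after their values were seen. A gene that the rule names is not reported here. Alternatives were other scalings, filters, DESeq2 1.42.0, limma-voom (limma 3.58.1), single libraries with and without a block for the duplicate, single duplicates, and leaving out lines; the removal of the length and GC trend, the 2-fold counts under each alternative, the level classes and the placing against the other lines' range were added after the data were examined. Python 3.11.15 with pandas 2.3.3 and matplotlib 3.10.9 made tables and figures.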

Additional observations from a re-analysis of the deposited data

Results flagged for a closer look

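In groups of 4 libraries a value was set apart when its gap to the nearest library exceeded the 95% limit of Dixon's test. Chance sets apart about 1 in 20 groups, and 16 of 334 were. In the corrected lines these were Calcoco2 in library 1a (91.7 CPM, others 84.2 to 84.8), Pgk1 in 1b (1124, others 1173 to 1178), Steap3 in 1b (9.14, others 8.37 to 8.46), Vegfc in 1b (6.44, others 5.14 to 5.34), Pik3r3 in 2b (18.8, others 17.0 to 17.2) and Spry2 in 2b (131, others 128). In library a1 of db5 they were Ciart (24.3 CPM, others 22.1 to 22.3), Mrpl33 (14.6, others 13.8 to 14.0), Mars (245, others 235 to 237), Psmb4 (342, others 334 to 335) and Nr5a2 (117, others 122 to 123). In library b2 of db5 they were Zan (0.86 CPM, others 1.39 to 1.47) and Armcx2 (23.3, others 25.5), and in b1 Phyhip (0.551, others 0.854 to 0.877). The median log2 level of the RNA polymerase I and III list was 0.101 in db5 library b1 (others 0.061 to 0.067), and that of mTOR pathway components was -0.008 in db5 library b2 (others 0.026 to 0.032).

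The difference between the contrasts corrected minus db5 and control minus db7, tested in the same edgeR model, passed the threshold for 11626 genes (59%). Among the named genes of opposite sign it was -7.92 for Crmp1 (edgeR adjusted p = 5.3e-12), -4.92 for Lefty1 (9.3e-11), 3.95 for Cass4 (6.3e-09) and 4.91 for Arhgef28 (8.3e-10), in log2.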

How the results depend on the processing

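The count called between corrected and db5 lines was 9860 to 13222 over the alternatives and 10389 to 10626 when a line was left out. With at least 1 CPM in 2 lines the counts of at least 2-fold were 1941 for corrected against db5, 917 for db7 against db5, 817 for B1 against A5 and 1363 for control against db7. B1 against A5 gave 4115 calls with second duplicates only. The share with the same sign in control minus db7 was 48.5% with A5 only, 54.8% with B1 only and 59.1% for changes of at least 2-fold. With library size alone the medians of core and naive pluripotency (0.04), neural progenitor (0.02), FGF-ERK (0.01), mTOR pathway (0.09) and Wnt (0.11) lists and the difference of Klf4 (0.05) turned positive; that scaling shifts all fold changes up. The median difference, corrected and db5 lines, was 0.362 over genes of at least 1 CPM and 0.295 over those of at least 50 CPM. Of the 127 named genes tried, Lepr and Klf4 alone changed their call under any alternative run. Duplicate numbers and letters do not pair corrected with db5 libraries (correlations of duplicate differences -0.09 to 0.0). Within a side the correlation was -0.62 between both corrected lines and 0.21 between both db5 lines. With a replicate block on single libraries 11359 genes were called, and 12255 without it. With 1 name on each side, no test at the level of independent clones can be made. Genes under 1 CPM, Lepr among them, are measured from few counts.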
